A study of Mus with 12 samples.

Results

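The 8 genes described here are those whose products turn arachidonic acid into leukotrienes and prostanoids: Alox5, Alox5ap, Lta4h, Ltc4s, Alox15, Ptgs2, Ptgs1 and Tbxas1. They were taken from the deposited blood table by gene name, and all 8 were found once each among its 25247 genes. Whole blood was taken on day 30 from 12 female BALB/c mice, bought at an age of 6 weeks, with 3 mice and 3 libraries in each of 4 groups. The study's methods describe more mice per group than there are libraries, and each library was taken as 1 mouse, as the series design has it. The Solvent group received vehicle on shaved skin, acetone and olive oil at 3:1. The DNCB group was sensitised with 1% 1-chloro-2,4-dinitrobenzene (DNCB), a hapten that gives an allergic dermatitis, and challenged with 0.5% DNCB. The scMSC and scivMSC groups received the same DNCB course plus 4 doses of human umbilical cord mesenchymal stem cells (MSC). Each dose held 2000000 cells. In scMSC its 100 μL went under the skin beside the lesion, and in scivMSC 50 μL went under the skin and 50 μL into the tail vein. No injection of medium without cells is described for the Solvent or DNCB mice, so the cells and the injection cannot be told apart. Setting DNCB beside Solvent shows what differed after the hapten, and setting scMSC or scivMSC beside DNCB shows what differed after each route of cell injection.

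Arachidonic acid is cut from membrane lipids by phospholipase A2 and then follows the leukotriene or the prostanoid route. In the leukotriene route, 5-lipoxygenase (Alox5) works with its membrane partner FLAP (Alox5ap) to make leukotriene A4. Leukotriene A4 hydrolase (Lta4h) turns this into leukotriene B4, which attracts neutrophils, and leukotriene C4 synthase (Ltc4s) makes the cysteinyl leukotrienes of mast cells, basophils and eosinophils. In the prostanoid route, cyclooxygenase-1 (Ptgs1), the constant form found in platelets, or the inducible cyclooxygenase-2 (Ptgs2) makes prostaglandin H2. Thromboxane A synthase (Tbxas1), found in platelets and monocytes, turns prostaglandin H2 into thromboxane A2, which makes platelets clump. Alox15, the mouse 12/15-lipoxygenase, is known from eosinophils and resident macrophages. Neutrophils and monocytes carry the leukotriene route, and platelets carry Ptgs1 and Tbxas1.

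Levels are given as FPKM, the fragments on each kilobase of a gene in a library scaled to 1000000 fragments, haemoglobin included. The deposited counts summed to between 52179764 and 65139421 per library, and haemoglobin genes took 78.41% to 89.0% of them. A fold change on this scale, here called total-count scaling, moves with everything else in the library. Over the 5527 genes tested, the log2 fold change from Solvent to DNCB had a median of 0.06, that from DNCB to scMSC -0.63 and that from DNCB to scivMSC -1.53. With the trimmed mean of M-values (TMM), a scaling that assumes most genes do not change, these medians were -0.09, 0.06 and 0.04. Values under TMM are therefore given where a call differs between the scalings. A gene was called when edgeR's quasi-likelihood test gave an adjusted p under 0.05 and a fold change over 2.

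The blood held the cells that carry both routes. All 10 neutrophil markers and all 12 platelet markers passed the filter, which asked for 3 or more of the 12 libraries with an FPKM of 1 or more. Summed FPKM of the neutrophil markers was 220 to 445 in Solvent, 6960 to 10900 in DNCB, 572 to 716 in scMSC and 243 to 729 in scivMSC. Summed FPKM of the platelet markers was 404 to 640 in Solvent, 636 to 877 in DNCB, 772 to 1000 in scMSC and 804 to 944 in scivMSC. Of 8 monocyte markers 7 passed the filter. Summed FPKM of the 8 was 10.0 to 25.3 in Solvent and 26.6 to 49.0 in DNCB. It was 13.3 to 14.5 in scMSC and 9.23 to 10.5 in scivMSC. Of 6 eosinophil markers 2 passed the filter, and the defining eosinophil gene Epx was at the floor of 12 counts in every library. In whole blood, fewer cells of a type and less RNA per cell cannot be told apart.

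The 8 genes showed several patterns in the plot of FPKM by library. Alox5 and Alox5ap were high in DNCB and low in the other groups. Ptgs1 and Tbxas1 were lowest in Solvent, and their mean FPKM was no lower in scivMSC than in DNCB. Lta4h was highest in DNCB and lowest in the MSC groups, and Alox15, Ptgs2 and Ltc4s were low with wide spread. Of the 8 genes 6 passed the filter and were tested. Ltc4s and Ptgs2 did not pass, with 0 libraries at an FPKM of 1. Alox5 passed through its 3 DNCB and 3 scMSC libraries, and Lta4h through 3 DNCB libraries and 1 Solvent library. Ptgs1 passed through all 3 libraries of each group but Solvent, and Tbxas1 through 1 DNCB, 3 scMSC and 3 scivMSC libraries. The passing of these genes was therefore not independent of where they were high.

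**Figure D1:**
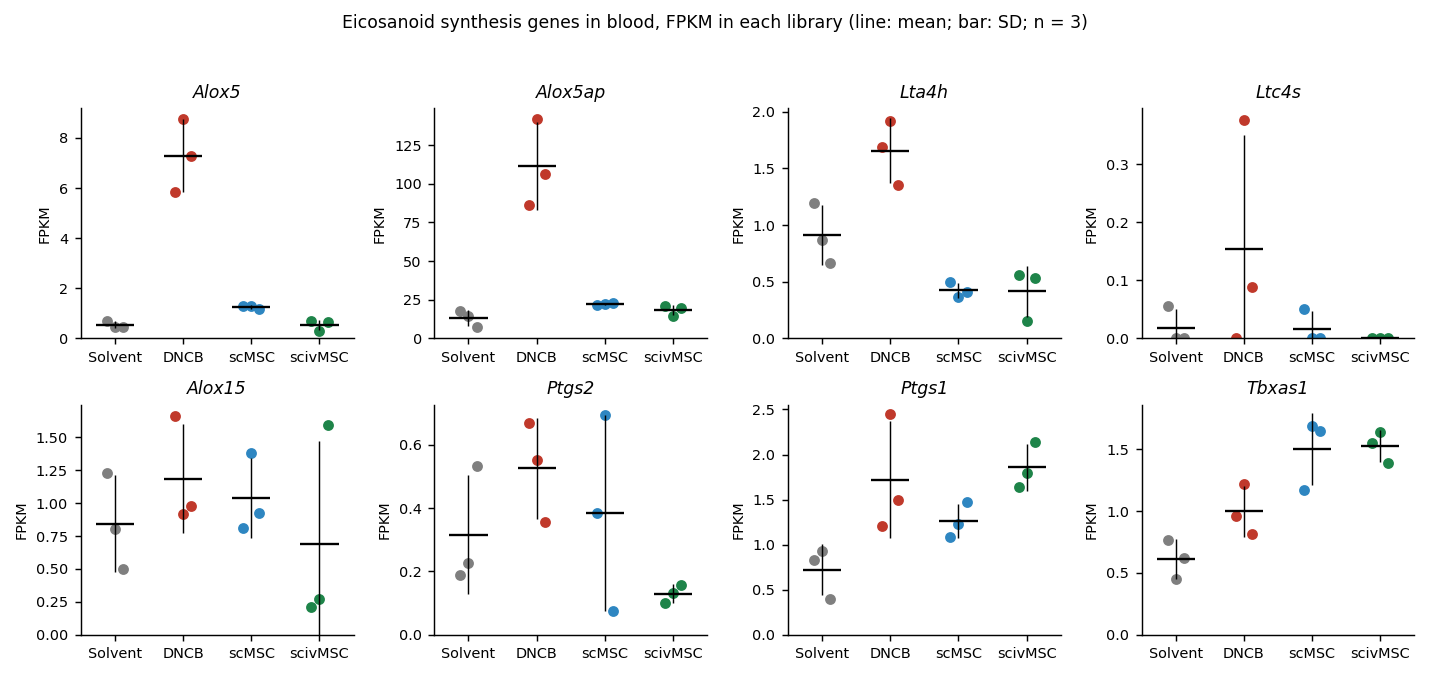
FPKM (vertical axis, linear, from 0) of each of the 8 genes in the 12 libraries, by group; points are libraries, horizontal lines group means and vertical lines the SD of 3 libraries. The DNCB libraries sit above all others for Alox5 (5.83 to 8.76) and Alox5ap (86.0 to 142), while scivMSC sits above Solvent for Ptgs1 and Tbxas1.

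Alox5 (ENSMUSG00000025701, chromosome 6, 116410077 to 116461178, minus strand) makes the committed step of the leukotriene route. Positions here are those of the deposited table. The submitters' processing notes list build mm8, but 99.9% of 21414 genes matched by name overlap their GRCm38.p6 spans, so the positions were read as GRCm38. Its FPKM in Solvent was 0.7, 0.449 and 0.463, and in DNCB 5.83, 8.76 and 7.3. It was 1.31, 1.29 and 1.18 in scMSC and 0.675, 0.311 and 0.642 in scivMSC. All DNCB libraries were above all others, the scMSC libraries were next, and the Solvent and scivMSC libraries overlapped at the bottom. In DNCB against Solvent, Alox5 rose 13.37-fold (log2 3.74, SE 0.39, adjusted p = 6.27e-06). Against DNCB, it fell by 2.54 in scMSC (SE 0.37, adjusted p = 0.000206) and by 3.73 in scivMSC (SE 0.39, adjusted p = 4.47e-06). These falls were 1.91 and 2.2 beyond the median of all tested genes, and under TMM the log2 fold changes were -1.84 and -2.15, both called.

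Alox5ap (ENSMUSG00000060063, chromosome 5, 149264767 to 149288153, plus strand), the gene of FLAP, which hands arachidonic acid to 5-lipoxygenase, had the highest FPKM of the 8 genes in every library. Its FPKM was 17.5, 14.6 and 7.37 in Solvent and 86.0, 142 and 106 in DNCB. It was 21.6, 21.9 and 22.9 in scMSC and 21.1, 14.7 and 19.4 in scivMSC. Each DNCB library was above every other library, and the 3 remaining groups lay close together, with Solvent and scivMSC overlapping. Alox5ap rose 8.47-fold in DNCB against Solvent (log2 3.08, SE 0.34, adjusted p = 8.64e-06). It fell by 2.35 in scMSC against DNCB (SE 0.33, adjusted p = 0.000153) and by 2.6 in scivMSC against DNCB (SE 0.33, adjusted p = 1.08e-05). Under TMM the scMSC change was -1.63 and called, while the scivMSC change was -0.94 (adjusted p = 0.00515), short of a fold of 2. Genes on the opposite strand within its span, n-R5s180 and Gm19719, had at most 0.6 and 0.378 FPKM, and whether counting used strand is not given in the sources used here.

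Lta4h (ENSMUSG00000015889, chromosome 10, 93453411 to 93484874, plus strand), whose product makes leukotriene B4, moved less. Its FPKM was 1.19, 0.87 and 0.666 in Solvent, 1.69, 1.92 and 1.35 in DNCB, 0.498, 0.367 and 0.413 in scMSC, and 0.556, 0.156 and 0.532 in scivMSC. The groups did not overlap except that scMSC and scivMSC shared the lowest range, and scivMSC replicate 2 was the lowest library, with 55 counts. The difference of DNCB from Solvent was 0.86 on the log2 scale (SE 0.44, adjusted p = 0.184, approximate 95% interval 0.0 to 1.72) and was not called. Lta4h fell by 1.95 in scMSC against DNCB (SE 0.45, adjusted p = 0.00494) and by 1.99 in scivMSC against DNCB (SE 0.45, adjusted p = 0.0012). In limma on log2(FPKM + 1) neither fall reached a fold of 2, at -0.89 and -0.92. The first fall was called under TMM too, at -1.26 (adjusted p = 0.00216). The second was 0.46 beyond the median of all tested genes, and under TMM it was -0.46 (adjusted p = 0.136) and not called.

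Ltc4s (ENSMUSG00000020377, chromosome 11, 50236461 to 50238616, minus strand), the enzyme of the cysteinyl leukotrienes, was at or near 0. Its counts were 4, 0 and 0 in Solvent, 0, 25 and 7 in DNCB, 3, 0 and 0 in scMSC and 0 in all 3 scivMSC libraries. Only DNCB replicate 2 was above the floor of 12 counts per library, which stands for 3 fragments at about 4 counts each. At this depth the floor corresponds to an FPKM of 0.164 to 0.205, so lower levels, and any difference between the groups, were not detectable. The floor covers counting error only. Summed FPKM of 7 basophil and mast cell markers, the cells known for this enzyme, was 1.41 to 2.81 in Solvent, 8.53 to 10.7 in DNCB, 1.94 to 4.41 in scMSC and 2.53 to 3.8 in scivMSC.

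Alox15 (ENSMUSG00000018924, chromosome 11, 70344152 to 70352031, minus strand) differed between libraries of the same group more than between groups. Its FPKM was 1.23, 0.801 and 0.5 in Solvent, 1.66, 0.92 and 0.981 in DNCB, 0.813, 1.38 and 0.924 in scMSC, and 0.211, 0.272 and 1.59 in scivMSC. The groups overlapped in all 6 pairs. On the log2 scale, DNCB differed from Solvent by 0.49 (SE 0.64, approximate 95% interval -0.76 to 1.74) and scivMSC from DNCB by -0.78 (SE 0.64, adjusted p = 0.289). ScivMSC replicate 3 decided the last value: without it the change was -2.27 (adjusted p = 0.00477), and the changes against scMSC and Solvent became -2.06 (adjusted p = 0.039) and -1.78 (adjusted p = 0.0182). Summed FPKM of the eosinophil markers ran from 0.773 to 7.25 in scivMSC. The gene most like Alox15 over the 12 libraries was Ear2, on that marker list and known from eosinophils and monocytes, with a Pearson r of 0.774. Next were Wdr45 with 0.722 and Rp2 with 0.714, neither of them on that list.

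Ptgs2 (ENSMUSG00000032487, chromosome 1, 150100031 to 150108227, plus strand), the inducible cyclooxygenase, stayed under an FPKM of 1 in all libraries. Its FPKM was 0.189, 0.226 and 0.532 in Solvent, 0.668, 0.553 and 0.355 in DNCB, 0.386, 0.695 and 0.0749 in scMSC, and 0.0997, 0.132 and 0.158 in scivMSC. The scivMSC libraries were below all Solvent and DNCB libraries, and the other groups overlapped. With the filter lifted and all 25247 genes tested, the difference of DNCB from Solvent was 0.73 (SE 0.65, adjusted p = 0.578), that of scMSC from DNCB was -0.45 (SE 0.64, adjusted p = 0.852) and that of scivMSC from DNCB was -2.0 (SE 0.67, adjusted p = 0.0249). The last was 0.73 beyond the median of all genes in that fit.

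Ptgs1 (ENSMUSG00000047250, chromosome 2, 36230426 to 36252272, plus strand), the cyclooxygenase of platelets, was called higher in DNCB and was not called lower in either MSC group against DNCB. Its FPKM was 0.832, 0.932 and 0.402 in Solvent, 1.21, 2.45 and 1.5 in DNCB, 1.09, 1.23 and 1.47 in scMSC, and 1.64, 1.79 and 2.14 in scivMSC. The Solvent libraries were below all others, the scivMSC libraries were above the scMSC libraries, and the DNCB libraries overlapped both MSC groups. Ptgs1 rose 2.37-fold in DNCB against Solvent (log2 1.25, SE 0.40, adjusted p = 0.0363). This call was lost without Solvent replicate 2 or 3, DNCB replicate 2 or 3, or scMSC replicate 3, with log2 fold changes of 0.9 to 1.47 and adjusted p values up to 0.187. The difference of scMSC from DNCB was -0.45 (SE 0.40, adjusted p = 0.413, approximate 95% interval -1.23 to 0.33), and 0.28 under TMM (adjusted p = 0.563). That of scivMSC from DNCB was 0.11 (SE 0.40, adjusted p = 0.823, approximate 95% interval -0.67 to 0.88), and under TMM Ptgs1 was called higher there, at 1.86 (adjusted p = 0.000642).

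Tbxas1 (ENSMUSG00000029925, chromosome 6, 38875404 to 39084585, plus strand), the thromboxane synthase, was highest in the MSC groups. Its FPKM was 0.767, 0.449 and 0.622 in Solvent, 0.959, 1.22 and 0.814 in DNCB, 1.17, 1.69 and 1.65 in scMSC, and 1.55, 1.64 and 1.39 in scivMSC. The Solvent libraries were lowest, the DNCB libraries were next and overlapped scMSC in 1 library on each side, and all scivMSC libraries were above all DNCB libraries. DNCB differed from Solvent by 0.71 (SE 0.32, adjusted p = 0.134), scMSC from DNCB by 0.57 (SE 0.32, adjusted p = 0.192) and scivMSC from DNCB by 0.6 (SE 0.32, adjusted p = 0.102), none of them called. Under TMM the changes of scMSC and scivMSC from DNCB were 1.31 (adjusted p = 0.0053) and 2.35 (adjusted p = 4.95e-05), both called higher. The deposited FPKM values use a length of 9690 bases for Tbxas1 against 1510 for Alox5ap, so their levels depend on the gene models. Hipk2, on the opposite strand, overlaps Tbxas1 and had 77 to 449 counts per library against 268 to 969 for Tbxas1, so without strand some reads could belong to either. The mean FPKM of Hipk2 was 0.597 in Solvent, 0.547 in DNCB, 0.521 in scMSC and 0.356 in scivMSC, and its part in the values of Tbxas1 was not tested.

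The counts of called genes are set here against those over all tested genes. In DNCB against Solvent, 3 of the 6 tested genes were called higher (Alox5, Alox5ap and Ptgs1) and 0 lower, where 15.6% of all tested genes were called higher and 4.87% lower. The same 3 were called under TMM, where the shares of all genes were 16.1% and 11.5%. The Ptgs1 call was lost with the filter lifted (adjusted p = 0.109) and in limma on log2(FPKM + 1), where its change was 0.65 (adjusted p = 0.0237), short of a fold of 2. In scMSC against DNCB, 3 were called lower (Alox5, Alox5ap and Lta4h) and 0 higher, where 24.9% of all genes were called lower and 1.27% higher. Under TMM the same 3 were lower and Tbxas1 was higher, where 12.3% of all genes were lower and 8.74% higher. In scivMSC against DNCB the same 3 genes were called lower and 0 higher, but 62.0% of all genes were called lower there and 1.43% higher, so 3 of 6 is no more than the share of genes at large. Under TMM only Alox5 was lower there, while Ptgs1 and Tbxas1 were higher, where 18.9% of all genes were lower and 20.6% higher. With haemoglobin left out, Alox5, Alox5ap (-2.02) and Lta4h (-1.45) were called lower there and Tbxas1 higher, at 1.21 (adjusted p = 0.000469). Ptgs1 was not called in that fit, at 0.74 (adjusted p = 0.0672). Of its 5523 genes, 2567 were called lower and 341 higher. The 3 comparisons share the DNCB libraries and are not independent of each other.

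**Figure D2:**
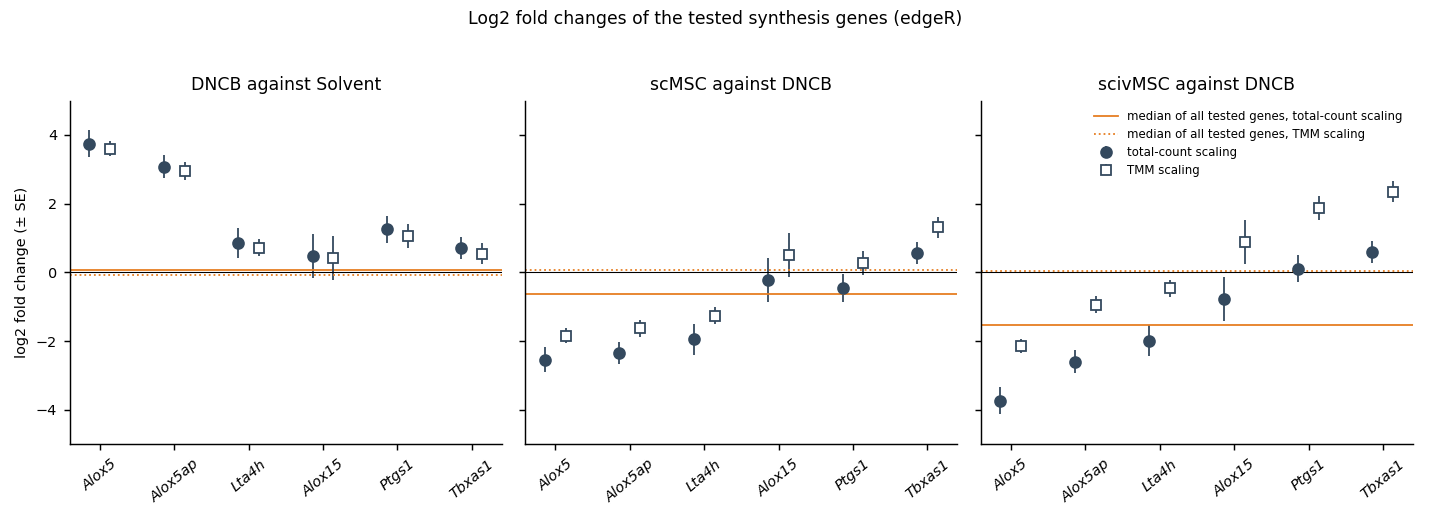
Log2 fold change ± SE (vertical axis) of the 6 tested genes in the 3 main comparisons, with total-count scaling (filled circles) and TMM scaling (open squares); orange lines mark the median of all tested genes under each scaling. Alox5 and Alox5ap lie at 3.74 and 3.08 in DNCB against Solvent and below the median line of their own scaling in both MSC comparisons, while Tbxas1 lies above it in all 3.

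The routes of injection were compared directly as well. In scivMSC against scMSC, 1 gene was called lower, Alox5, at -1.19 on the log2 scale (SE 0.36, adjusted p = 0.0233), and 0 were called higher, where 30.4% of all genes were lower and 0.344% higher. Alox5 was -0.31 under TMM (adjusted p = 0.263), and it was not called without scMSC replicate 1 or 3 or scivMSC replicate 2 or 3, with values of -1.33 to -0.91. Under TMM 2 genes were called higher and 0 lower, Ptgs1 at 1.58 (adjusted p = 0.00586) and Tbxas1 at 1.04 (adjusted p = 0.0195), where 13.1% of all genes were higher and 4.92% lower. With total-count scaling these were 0.56 (adjusted p = 0.278) and 0.03 (adjusted p = 0.948). Alox5ap was -0.26 and turned to 0.69 under TMM (adjusted p = 0.0436), and Lta4h was -0.04 and turned to 0.8 (adjusted p = 0.0288). The direction between the routes therefore depended on the scaling for these 2 genes.

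Each MSC group was also set against Solvent. In scMSC against Solvent 0 genes were called, where 0.326% of all genes were called higher and 0.326% lower. The largest differences were 1.28 for Tbxas1 (SE 0.32, unadjusted p = 0.00103, adjusted p = 0.0815) and 1.2 for Alox5 (SE 0.36, unadjusted p = 0.00367, adjusted p = 0.0953), in both of which the groups did not overlap. Both genes were called higher without scivMSC replicate 1 or 2, and Lta4h was called lower without scivMSC replicate 2, at -1.08 (adjusted p = 0.0401). At an unadjusted p under 0.05, 4 of the 6 genes passed, Alox5, Alox5ap, Lta4h and Tbxas1, where 28.3% of all tested genes did. Under TMM 4 genes were called higher, Alox5 at 1.76, Alox5ap at 1.32, Ptgs1 at 1.35 and Tbxas1 at 1.84, and 0 lower, where 7.29% of all genes were higher and 1.21% lower. DESeq2 called the same 4.

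In scivMSC against Solvent, Tbxas1 rose 2.48-fold (log2 1.31, SE 0.32, adjusted p = 0.0025) and Ptgs1 rose 2.55-fold (log2 1.35, SE 0.41, adjusted p = 0.00824), where 2.59% of all genes were called higher. Both were called in all 12 fits that left out 1 library. Neither had a Solvent library at an FPKM of 1, so both passed the filter through the groups where they were high. Lta4h fell by 1.13 (SE 0.44, adjusted p = 0.0344), where 59.2% of all genes were called lower, and it turned to 0.26 under TMM (adjusted p = 0.392). The Lta4h call was lost without Solvent replicate 1 or 2 or scivMSC replicate 2, at -0.89, -1.16 and -0.74. Alox5 was 0.01 (SE 0.35, adjusted p = 0.981, approximate 95% interval -0.68 to 0.7) and Alox5ap 0.48 (SE 0.31, adjusted p = 0.181). Under TMM 4 genes were called higher and 0 lower, Alox5 at 1.45, Alox5ap at 2.01, Ptgs1 at 2.93 and Tbxas1 at 2.88, where 22.4% of all genes were higher and 13.4% lower. With total counts, Alox5 and Alox5ap were thus not called against Solvent. Lta4h was called lower, as were 59.2% of all genes, and Ptgs1 and Tbxas1 were called higher.

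A ratio of 2 genes within a library does not depend on the scaling. The ratio of Alox5ap, the leukocyte gene with most counts, to Ptgs1, the platelet cyclooxygenase, was 21.0, 15.7 and 18.4 in Solvent and 70.8, 58.0 and 70.7 in DNCB. It was 19.7, 17.8 and 15.6 in scMSC and 12.9, 8.17 and 9.04 in scivMSC. DNCB was above all others, Solvent and scMSC overlapped, and scivMSC was below all others. The group means were 18.4 ± 2.69, 66.5 ± 7.37, 17.7 ± 2.08 and 10.0 ± 2.52 (SD, n = 3 each). Over all assignments of libraries to the 4 groups, an exact permutation test gave p = 0.000455, with 168 of 369600 assignments as extreme. The ratio was chosen with earlier results of these data known, so this p is a description and no independent test. Between any 2 groups alone, 3 libraries against 3 cannot give an exact two-sided p below 0.1. The ratio of Alox5 to Ptgs1 was likewise highest in DNCB and lowest in scivMSC, at 0.825 ± 0.335 in Solvent, 4.41 ± 0.732 in DNCB, 1.01 ± 0.2 in scMSC and 0.295 ± 0.119 in scivMSC (SD, n = 3 each), where Solvent and scMSC again overlapped.

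Beside the neutrophil markers, a comparison chosen after the data were seen, Alox5ap and Alox5 moved less than most in the 3 main comparisons. Alox5ap rose by 3.08 in DNCB against Solvent, and all 10 neutrophil markers had a higher log2 fold change, with a median of 4.96. In scMSC against DNCB all 10 had a lower log2 fold change than Alox5ap, and in scivMSC against DNCB 9 had. For Alox5, 8 of 10 markers lay above it in DNCB against Solvent, and against DNCB 9 lay below it in scMSC and 8 in scivMSC. The ratio of Alox5ap to a marker depended on the marker. To S100a8, a calcium-binding protein of neutrophils, its mean was 0.184 in Solvent, 0.0546 in DNCB, 0.174 in scMSC and 0.204 in scivMSC. To Csf3r, the granulocyte colony-stimulating factor receptor, it was 0.582, 0.565, 0.61 and 2.34 in the same order, the DNCB mean being closest to the Solvent mean among the 10 markers. Csf3r had a mean FPKM of 22.0 in Solvent and 10.5 in scivMSC, while the neutrophil list had a median log2 fold change of 0.57 between these groups, with 4 markers called higher and 1 lower.

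The comparisons with single platelet and monocyte markers were likewise chosen after the data were seen. Ptgs1 lay within the range of the platelet markers in the 3 main comparisons. Its change of 1.25 from Solvent to DNCB was exceeded by 4 of 12 markers, with a list median of 0.92 on the log2 scale, and its values of -0.45 and 0.11 against DNCB were exceeded by 9 of 12 in each MSC group. The mean ratio of Ptgs1 to Pf4, the platelet chemokine, was 0.0033 in Solvent and 0.00717 in DNCB, and that to Gp9, a subunit of the von Willebrand factor receptor, was 0.0223 and 0.0211. Tbxas1 exceeded 11 of 12 platelet markers in both MSC groups against DNCB, at 0.57 and 0.6. It also exceeded all 7 tested monocyte markers there, whose medians were -1.56 and -2.65. The ratio of Tbxas1 to Csf1r, a monocyte receptor, was 0.152 to 0.39 in Solvent, 0.0879 to 0.116 in DNCB, 0.424 to 0.873 in scMSC and 1.83 to 6.58 in scivMSC, so no groups overlapped. This ratio depended on the marker too. To the monocyte marker F13a1 its mean was 0.172, 0.0987, 0.221 and 0.21 in the same order, and to Nr4a1 0.358, 0.75, 1.97 and 7.55. To each other tested monocyte marker the mean was lowest in DNCB and highest in scivMSC, as for Csf1r. Of the 7 monocyte markers, 6 were called lower in scivMSC against DNCB, and under TMM 4 were lower and 1 higher.

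**Figure D3:**
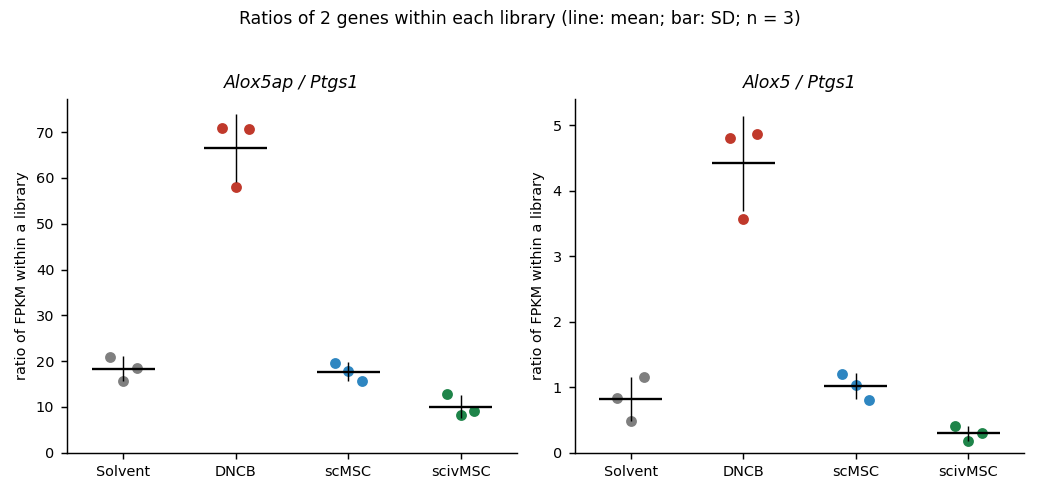
Ratio of 2 FPKM values within each library (vertical axes, linear, from 0), by group, with group means and SD of 3 libraries; points are libraries. The ratio of Alox5ap to Ptgs1 is 58.0 to 70.8 in DNCB and 8.17 to 12.9 in scivMSC, and the ratio of Alox5 to Ptgs1 has means of 4.41 and 0.295 in these groups.

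Markers of the cells moved with these genes, and their part in the results was not tested. All 10 neutrophil markers were called higher in DNCB against Solvent, with a median log2 fold change of 4.96, and against DNCB all 10 were called lower in either MSC group, with medians of -3.66 and -4.23. This held under TMM, with medians of 4.78, -2.94 and -2.69. Of the 12 platelet markers, 6 were called higher in DNCB against Solvent (4 under TMM), and in scMSC against DNCB 1 was called lower with total counts and 4 higher with TMM. In scivMSC against DNCB 0 platelet markers were called with total counts, at a median of 0.34, and 11 were higher under TMM, at a median of 2.05. Of 6 tested red cell markers, 0 were called there with total counts, at a median of 0.49. Under TMM all 6 were called higher there, at a median of 2.14, so rises under TMM were not particular to platelet genes. In scivMSC against Solvent 8 platelet markers were called higher, and 12 under TMM.

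The genes whose log2(FPKM + 1) followed each enzyme most closely over the 12 libraries are given as a description, since the points share libraries and the total. For Alox5 they were Hdc, histidine decarboxylase, with a Pearson r of 0.993, P2ry13, a receptor for ADP, with 0.992, and C5ar1, the receptor for complement C5a, with 0.991. For Alox5ap they were Retnlg with 0.988, the kinase Lyn with 0.987 and the protease inhibitor Slpi with 0.987, and Retnlg is on the list of neutrophil markers. For Lta4h they were Ly6c1 with 0.978, Eif2ak3 with 0.975 and Cybb, a subunit of the phagocyte oxidase, with 0.973. For Ptgs1 they were Mpig6b with 0.894, the von Willebrand factor receptor subunit Gp1ba with 0.89 and Treml1 with 0.882, all known from platelets, and the last 2 are on the platelet marker list. For Tbxas1 they were Vsig2 with 0.984, Ltbp1 with 0.966 and Thbs1, thrombospondin, with 0.96. Among the 8 genes themselves, r was 0.97 between Alox5 and Alox5ap, 0.79 between Alox5 and Lta4h, 0.63 between Ptgs1 and Tbxas1 and -0.06 between Alox5 and Tbxas1.

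The rest of the pathway was followed through 45 listed genes for arachidonate release, conversion, export and receptors. Of these 42 were found by name and 11 passed the filter. DNCB against Solvent gave 4 called higher and 1 lower, scMSC against DNCB 0 higher and 4 lower, and scivMSC against DNCB 0 higher and 5 lower. These counts include Ggt1 and Ggt5, which passed the filter only because they were high in DNCB. The median log2 fold changes were 0.57, -0.19 and -0.58, beside 0.06, -0.63 and -1.53 over all tested genes. Of all tested genes, 15.6% were called higher in the first comparison, and 24.9% and 62.0% lower in the other two, so the 5 of 11 in scivMSC were below the share of genes at large. Under TMM the counts were 4 higher and 2 lower, 3 higher and 4 lower, and 5 higher and 4 lower. The shares of all tested genes there were 16.1% higher and 11.5% lower, 8.74% and 12.3%, and 20.6% and 18.9%.

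Among the other pathway genes, those tested that act on leukotrienes were called in the same direction as Alox5. This held in all 3 main comparisons under both scalings. Lta4h, by contrast, was not called in DNCB against Solvent under either scaling, nor under TMM in scivMSC against DNCB. Ltb4r1, the leukotriene B4 receptor of neutrophils, had an FPKM of 0.663 ± 0.211 in Solvent, 13.2 ± 2.0 in DNCB, 1.69 ± 0.394 in scMSC and 1.21 ± 0.199 in scivMSC (SD, n = 3 each). It rose by 4.3 in DNCB against Solvent (SE 0.41, adjusted p = 2.9e-06), and its log2 fold changes against DNCB were -2.97 in scMSC and -3.45 in scivMSC, or -2.3 and -1.79 under TMM. Cyp4f18, which inactivates leukotriene B4 in mouse neutrophils, had 5.11 ± 0.803, 35.0 ± 10.0, 7.31 ± 0.727 and 3.25 ± 1.92 FPKM in the same order. It rose by 2.77 (SE 0.42, adjusted p = 0.000206), and the later changes were -2.27 and -3.43. The gamma-glutamyl transferases Ggt1 and Ggt5, of which Ggt5 turns leukotriene C4 into D4, rose by 2.71 and 2.45 in DNCB. Ggt1 and Ggt5 reached an FPKM of 1 in the DNCB libraries alone, with at most 0.396 and 0.592 elsewhere. The filter thus admitted them only because they were high in DNCB, so the direction of their calls is no separate support. Ltb4r1 had at most 0.885 in Solvent and passed through the other groups. Against DNCB, Ggt1 was at -3.94 in scMSC and -4.84 in scivMSC and Ggt5 at -2.16 and -3.57, all called lower, with 8 to 16 counts of Ggt1 left in scivMSC. The other 4 of 7 measured genes for leukotriene conversion and export did not pass the filter, nor did the other 3 measured leukotriene receptors.

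With total counts, genes of arachidonate release and of the prostanoid side were mostly not called. Under TMM 4 of the 6 tested were called higher in scivMSC against DNCB (Pla2g12a, Cbr1, Ptgir and Tbxa2r), where 20.6% of all tested genes were. Of these, Ptgir and Tbxa2r had negative log2 fold changes with total counts. Pla2g12a, the phospholipase A2 that passed the filter, had log2 fold changes of -0.05, 0.38 and 0.83 in the 3 main comparisons, and under TMM it was called higher in both MSC groups against DNCB, at 1.07 and 2.49. Pla2g4a, the cytosolic phospholipase A2, had mean FPKM of 0.394 to 0.624 and was not tested. Alox12, the platelet 12-lipoxygenase, had 11.5 ± 2.48 FPKM in Solvent, 17.1 ± 3.44 in DNCB, 20.5 ± 3.37 in scMSC and 22.6 ± 1.47 in scivMSC (SD, n = 3 each). Its changes of 0.57, 0.25 and 0.4 in the main comparisons were not called, and under TMM it was called higher in scivMSC against DNCB, at 2.11 (adjusted p = 3.65e-05).

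Of 11 prostanoid conversion genes 3 passed the filter. Ptges3, a co-chaperone with prostaglandin E synthase activity, fell by 1.46 in scivMSC against DNCB (SE 0.44, adjusted p = 0.00761), close to the median of all genes, and was not called under TMM, at 0.11. Ptgds, a prostaglandin D synthase, ranged from 0.422 to 5.97 FPKM within Solvent and was not called. Cbr1, a carbonyl reductase, had log2 fold changes of -1.39, 1.34 and 1.18 in the main comparisons, called under TMM alone, at -1.54, 2.0 and 2.63. Of 9 prostanoid receptors 2 passed. Tbxa2r, the thromboxane receptor, fell by 1.43 in DNCB against Solvent (SE 0.48, adjusted p = 0.0409), from 1.85 ± 0.564 to 0.682 ± 0.0852 FPKM (SD, n = 3 each), while the difference of Tbxas1 was 0.71 there. Under TMM Tbxa2r was called higher against DNCB in both MSC groups, at 1.2 (adjusted p = 0.0177) and 1.01 (adjusted p = 0.0269). With total counts it was not called in either, at 0.58 in scMSC and -0.58 in scivMSC. Against Solvent, Tbxa2r in scivMSC was called lower with total counts, at -2.01 (adjusted p = 0.00219), and was not called under TMM, at -0.52. Ptgir, the prostacyclin receptor, had 1.04 in DNCB against Solvent (SE 0.38, adjusted p = 0.0642) and was not called. In scivMSC against DNCB it was -0.42 with total counts and not called, but under TMM it was called higher, at 1.23 (adjusted p = 0.000984). The direction in scivMSC against DNCB therefore depended on the scaling for both receptors.

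**Figure D4:**
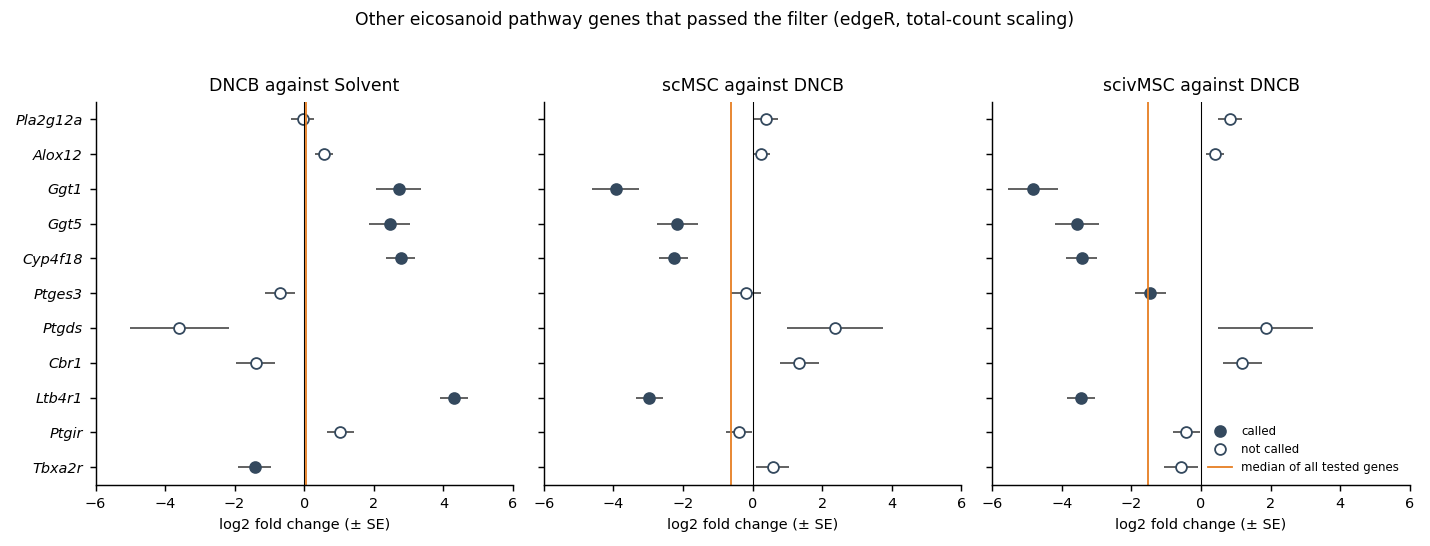
Log2 fold change ± SE (horizontal axis) of the 11 other pathway genes that passed the filter in the 3 main comparisons, with total-count scaling; filled points were called, open points were not, and the orange line is the median of all tested genes. Ggt1, Ggt5, Cyp4f18 and Ltb4r1 are called in all 3 panels, higher in DNCB and lower in both MSC groups. Ggt1 and Ggt5 passed the filter through the DNCB libraries alone, so their direction is no separate support.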

How the data were processed

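The authors deposited a blood table with, for each of 12 libraries, estimated counts and FPKM values per gene. The submitters' processing notes name HISAT2 2.0, StringTie 1.3.0, Bowtie 0.12.2 and build mm8, without roles. Annotation and strand setting are not given in the sources used here. The deposited counts are whole, but 54.8% of those from 1 to 12 are multiples of 4, so they were treated as estimated counts. Counts were tested with edgeR 4.0.16 in R 4.3.3 (quasi-likelihood, 4 group means over 12 libraries, total-count scaling, FPKM of at least 1 in at least 3 libraries, Benjamini-Hochberg over 5527 genes), and the script was tested on simulated data. Alternatives used TMM, DESeq2 1.42.0, limma 3.58.1 and others. SE was derived from the fold change and its F statistic. Groups and replicate numbers came from the sample titles. The 8 genes, the pathway and marker lists, the ratio of Alox5ap to Ptgs1 and the rule for names were chosen with earlier results of these data known. The rule named the 8 genes, pathway genes called in a main comparison and the 3 genes most correlated with each tested gene, leaving out predicted genes and immunoglobulin and T cell receptor genes. Other pathway genes named were chosen after their values were seen.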

Additional observations from a re-analysis of the deposited data

How the results depend on the processing

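Under TMM and DESeq2, calls of the 6 tested genes numbered 2 in each (Ptgs1 and Tbxas1, higher) for scivMSC against scMSC, where total counts gave 1, and 4 in each for scMSC against Solvent, where total counts gave 0. Leaving out haemoglobin gave 2 there. Fits of 2 groups only gave 3 there and 0 for scivMSC against scMSC. A mean FPKM of at least 5 left Alox5ap alone to test, with 1, 1 and 1 calls in the main comparisons and 0 and 0 in scivMSC against scMSC and Solvent. Limma on log2(FPKM + 1) gave 0 in those last 2 as well.

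Signs turned as follows. Under TMM and DESeq2 in turn, Alox5ap was 0.69 and 0.73 and Lta4h 0.8 and 0.82 in scivMSC against scMSC, and Lta4h was 0.26 and 0.29 in scivMSC against Solvent. Alox15 was 0.5 and 0.44 for scMSC and 0.88 and 0.86 for scivMSC, each against DNCB, 0.39 and 0.42 in scivMSC against scMSC and 1.31 and 1.33 in scivMSC against Solvent. Ptgs1 in scMSC against DNCB was 0.28 and 0.24. With haemoglobin left out, Lta4h was 0.11 in scivMSC against scMSC, and Alox15 0.22 in scivMSC against Solvent and 0.17 in scMSC against DNCB. Alox5 in scivMSC against Solvent, 0.01 with total counts, was -0.02 in limma with a pseudocount of 0.1 and 0.0 with counts divided by 4. The cause of these turns was not tested.

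Over the 12 fits that each left out 1 library, calls ranged from 0 to 1 in scivMSC against scMSC and from 0 to 3 in scMSC against Solvent. Log2 fold changes that crossed 0 ranged from -0.18 to 0.29 for Alox5 in scivMSC against Solvent, -0.31 to 0.35 for Lta4h in scivMSC against scMSC, -0.09 to 0.45 for Ptgs1 in scivMSC against DNCB, -0.46 to 0.11 for Alox15 in scMSC against DNCB, -1.78 to 0.14 for Alox15 in scivMSC against Solvent and -0.12 to 0.12 for Tbxas1 in scivMSC against scMSC. The calls of Alox5 and Alox5ap in the main comparisons held in all 12. The p of the ratio of Alox5ap to Ptgs1, from the exact permutation test, ranged from 0.000455 to 0.00123, for a ratio chosen with earlier results known.

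Same-numbered libraries of different groups deviated together with correlations of -0.2 to 0.173, so the replicate numbers were not taken to pair the mice. With a replicate block the calls of the 6 genes were unchanged in number in all 6 comparisons, at 3, 3, 3, 1, 0 and 3, and the exact permutation p of the ratio within the block was 0.00521. Promoter motifs were not run.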
